A study of Mus musculus with 5 samples.

Results

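The subject is a set of 9 genes grouped as markers of macrophages derived from blood monocytes: Plac8, Folr2, Retnla, Chil3, Vcan, Cd226, Lyz1, Lyz2 and Adgre1. Some of them are also made by other cells, as given below. The 9 were given as a list of symbols and taken out of the 30478 genes in the deposited expression table. Their RNA was measured by strand-specific RNA-seq in macrophages sorted from the mouse peritoneal cavity, in 5 libraries. The mutant group held 2 libraries, named mutant 1 and mutant 2, of 8-week-old females in which both copies of Samhd1 were deleted (Samhd1 del/del) and which carried 2 copies of a cGAS-GFP knock-in allele (cGAS-GFP ki/ki). The wt group held 3 libraries, named wt 1 (a 13-week-old male), wt 2 (a 13-week-old female) and wt 3 (a 9-week-old female). All mice had the C57BL/6 strain background. By its title the series concerns how the loss of SAMHD1 engages innate nucleic acid sensors. SAMHD1 breaks down deoxynucleotides and cGAS senses DNA in the cytosol. Both genetic changes occurred together in every mutant mouse, so a difference cannot be assigned to either, and age and sex also differed between the groups.

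The peritoneal cavity holds long-lived resident macrophages and a smaller, renewing population that descends from monocytes recruited from blood. As monocytes settle in the tissue they lose early genes such as Plac8 and gain macrophage genes such as Adgre1, which encodes the surface protein F4/80. Lysozyme cuts bacterial cell walls, and its Lyz2 form is made throughout the monocyte and macrophage lineage.

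Depth was recovered from the deposited normalized counts, in which 1 read is worth between 0.829 and 1.06 normalized counts, and totals were 27282354 to 33119434 reads per library. A gene with 0 reads can have had a true level of up to 0.0906 to 0.11 CPM (read counts scaled to the library's total), which covers counting error only. The 18S ribosomal RNA gene Rn18s took 5.28% and 4.04% of reads in mutant 1 and mutant 2, against 0.599% to 1.64% in the wt libraries, and its part in the results was not tested. The labels do not say that the libraries of a group came from separate animals, and the p-values below reflect only how much these libraries varied. Samhd1 had 1279 and 1431 normalized counts in the mutant libraries, against 16777 to 18274 in wt libraries, and Cgas had 184 and 85.1 in mutant libraries, against 968 to 1212 in wt libraries. Both genes were thus low in the libraries that the labels call mutant.

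Of the 9 markers, 7 had at least 10 normalized counts in at least 2 libraries and entered the test, which used limma across 14977 genes with Benjamini-Hochberg adjustment. Plac8 and Folr2 were lower in mutant macrophages, Lyz1 and Lyz2 were higher, and Adgre1, Chil3 and Vcan did not pass the threshold of 0.05. For 4 of the 7 the groups did not overlap, as for 51.3% of all genes tested (24.3% with the mutant above and 26.9% with it below). Among all genes tested 8.6% were called, with 3.71% higher and 4.89% lower in the mutant. The median log2 fold change of mutant over wt was -0.07 over the 7 tested markers and 0.00 over all genes tested. The count test of edgeR on the recovered reads, DESeq2 and limma-voom each also called 2 markers higher and 2 lower. Over all genes edgeR called 4.29% higher and 4.47% lower, DESeq2 7.48% and 8.73%, and limma-voom 4.03% and 4.55%. In bulk RNA, fewer cells of a type and less RNA per cell cannot be told apart. All fold changes below are ratios of normalized count plus 2, mutant over wt, and a log2 fold change below 0 means lower in the mutant.

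**Figure D1:**
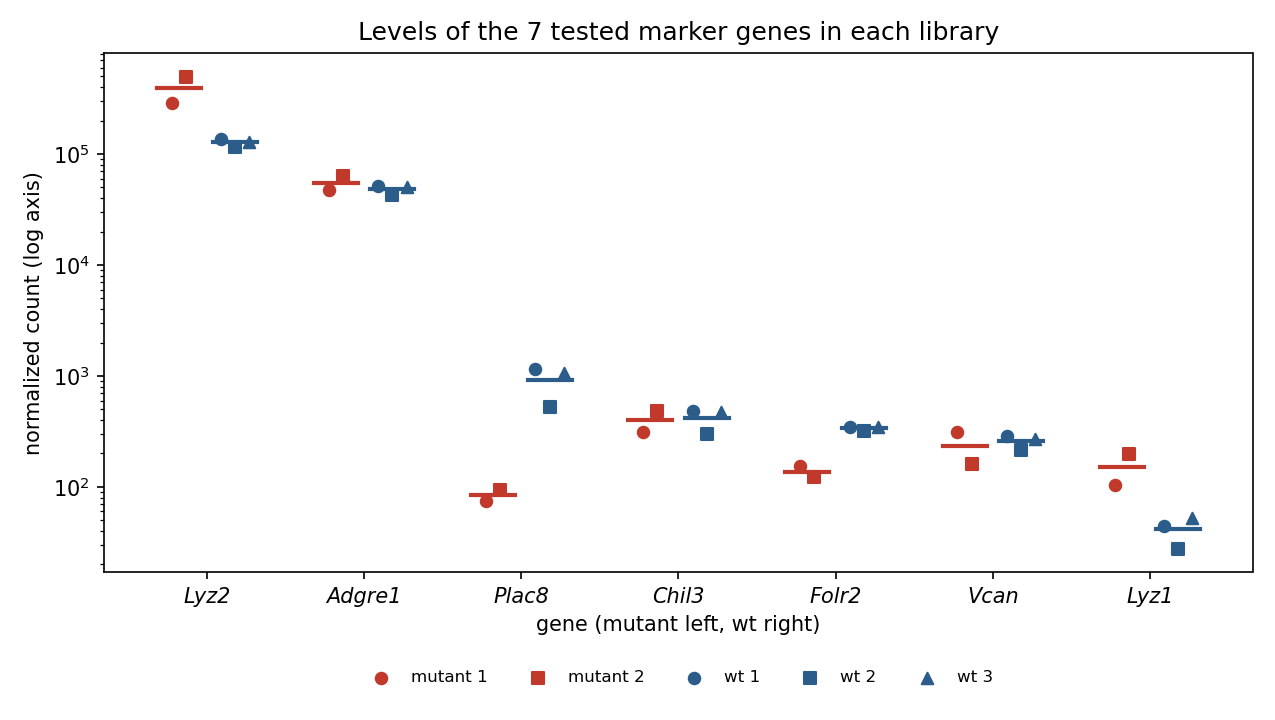
Normalized count (log axis) of the 7 tested markers in each library, with mutant libraries left and wt libraries right for each gene; points are libraries and horizontal bars are group means (n = 2 mutant, n = 3 wt). For Plac8 and Folr2 both mutant points lie under all wt points, for Lyz1 and Lyz2 both lie above them, and for Adgre1, Chil3 and Vcan the groups overlap.

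The promoters of the 4 genes that were called are printed because these genes moved in opposite directions, Plac8 and Folr2 lower and both lysozymes higher in the mutant. Each sequence runs 5′ to 3′ on the gene's strand and covers 250 to 51 bases upstream of the RefSeq transcript start in build GRCm38.p6. Capitals mark AGGAAGT, a core bound by ETS family factors such as PU.1, or its reverse complement ACTTCCT.
Plac8 chr5:100572256-100572455 minus strand: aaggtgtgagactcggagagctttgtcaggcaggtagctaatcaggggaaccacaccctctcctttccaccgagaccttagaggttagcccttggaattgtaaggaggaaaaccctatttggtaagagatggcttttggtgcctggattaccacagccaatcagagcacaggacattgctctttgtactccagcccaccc
Folr2 chr7:101857241-101857440 minus strand: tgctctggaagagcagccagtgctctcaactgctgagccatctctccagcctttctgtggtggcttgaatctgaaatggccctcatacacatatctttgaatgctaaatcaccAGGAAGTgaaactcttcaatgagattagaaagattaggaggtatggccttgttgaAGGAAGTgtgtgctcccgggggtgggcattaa
Lyz1 chr10:117292919-117293118 minus strand: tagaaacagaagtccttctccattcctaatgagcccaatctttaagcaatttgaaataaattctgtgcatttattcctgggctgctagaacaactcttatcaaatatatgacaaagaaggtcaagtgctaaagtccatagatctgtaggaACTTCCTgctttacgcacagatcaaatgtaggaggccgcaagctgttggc
Lyz2 chr10:117282323-117282522 minus strand: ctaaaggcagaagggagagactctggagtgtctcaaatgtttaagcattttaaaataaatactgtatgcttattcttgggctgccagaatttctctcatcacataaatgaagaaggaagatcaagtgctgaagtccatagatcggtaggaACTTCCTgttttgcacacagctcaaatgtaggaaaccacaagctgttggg
AGGAAGT or its complement stood in 5 of the 7 marker promoters searched, against 5.66% of 32851 promoter windows of this length. The promoters of Cd226 and Adgre1 were not searched. The Lyz1 and Lyz2 windows are alike, so their matches are not independent, and Retnla, also among the 5, had 0 reads in every library. Folr2 had it at 137 and 82 bases upstream, Lyz1 and Lyz2 each at 100 bases, Chil3 at 60 bases and Retnla at 198 bases. The windows of Plac8 and Vcan held no match of these letters. The letters TTGCNNAA, a core of C/EBP factors, stood in Retnla and Lyz1 (8.11% of all windows), a STAT6 element (TTC and GAA with any 4 bases between them) in Retnla alone (4.78%), and an interferon response element (GAAA and GAAA with any 2 bases between them) in 0 of the 7 (2.4%). All 4 motifs were searched on both strands. A match describes the letters in the window and is not evidence of binding.

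Plac8, a cytoplasmic cysteine-rich protein of immature myeloid cells and monocytes, had the largest shift of the set. It is on mouse chromosome 5, chr5:100553725-100572245, minus strand (GRCm38). Plac8 had 75.4 and 93.6 normalized counts in mutant 1 and mutant 2, against 1146, 529 and 1069 in wt 1, wt 2 and wt 3. Both mutant libraries lay far under the lowest wt library, wt 2, which itself held less than the other wt libraries. The means were 84.5 ± 12.9 in the mutant and 914 ± 336 in wt (SD, n = 2 and 3), a log2 fold change of -3.33 (SE 0.338, 95% interval -4.15 to -2.52, limma adjusted p = 0.00391), or 10.1-fold lower. It was the 22nd lowest of the 14977 log2 fold changes. Leaving out any 1 library kept the call, with log2 fold changes of -3.69 to -3.13. Against wt 3 alone, the wt library closest in age and of the same sex, a comparison added after the data were seen, the value was -3.64 (adjusted p = 0.0404).

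Folr2, a folate receptor of tissue macrophages, is on chromosome 7, chr7:101839988-101857194, minus strand. Folr2 had 153 and 122 normalized counts in mutant 1 and mutant 2, against 350, 317 and 349 in wt 1, wt 2 and wt 3. The wt libraries differed from each other by 1.10-fold at most, and both mutant libraries lay below them. The log2 fold change was -1.30 (SE 0.138, 95% interval -1.63 to -0.96, limma adjusted p = 0.00477), or 2.45-fold lower, with means of 137 ± 21.5 in the mutant and 339 ± 19.0 in wt. The call was lost without wt 1 (-1.27, adjusted p = 0.0535) and against wt 3 alone (-1.34, adjusted p = 0.352). Folr2 overlaps the antisense gene Gm10602, which had 191 reads over all libraries, and no source used here gives the strand setting of the counting.

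Lyz2, the lysozyme of myeloid cells, was the most abundant marker in every library. It is on chromosome 10, chr10:117277331-117282321, minus strand. Lyz2 had 286270 and 498770 normalized counts in mutant 1 and mutant 2, against 136780, 115520 and 129020 in wt 1, wt 2 and wt 3. Both mutant libraries exceeded every wt library, and mutant 2 was 1.74 times mutant 1. The gene took 1.03% and 1.72% of reads in the mutant libraries, against 0.498%, 0.418% and 0.464% in wt 1, wt 2 and wt 3. The log2 fold change was 1.58 (SE 0.238, 95% interval 1.00 to 2.15, limma adjusted p = 0.0159), or 2.98-fold higher. The call was lost without wt 1, wt 2 or wt 3 (adjusted p 0.0915, 0.0800 and 0.0956) and against wt 3 alone (1.55, adjusted p = 0.656), while the log2 fold change was 1.98 without mutant 1 and 1.17 without mutant 2.

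Lyz1, the lysozyme best known from Paneth cells of the gut, lies 5475 bases from Lyz2 at chr10:117287797-117292868, minus strand. Lyz1 had 104 and 200 normalized counts in mutant 1 and mutant 2, against 44.8, 27.8 and 52.8 in wt 1, wt 2 and wt 3. Again both mutant libraries were above all wt libraries, and mutant 2 was above mutant 1. The means were 152 ± 68.0 in the mutant and 41.8 ± 12.8 in wt, with a log2 fold change of 1.78 (SE 0.370, 95% interval 0.89 to 2.68, limma adjusted p = 0.0389), or 3.44-fold higher. The call was lost without wt 1, wt 2, wt 3 or mutant 2 (adjusted p 0.142, 0.109, 0.105 and 0.0607) and against wt 3 alone (adjusted p = 0.656).

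The lysozyme transcripts are 1263 (Lyz1) and 1316 (Lyz2) bases long and share 1211 of 1262 aligned bases, so reads can be split between them and the level of Lyz1 is uncertain. Of all 50-base windows of Lyz1, 16.1% also occur in Lyz2, as do 6.22% of 75-base and 2.06% of 100-base windows. Their printed promoter windows share 150 of 198 aligned bases, with AGGAAGT at the same distance in both. For every 10000 Lyz2 reads there were 3.62 and 4.01 Lyz1 reads in mutant 1 and mutant 2, against 3.27, 2.41 and 4.09 in wt 1, wt 2 and wt 3. These ratios overlapped: the log2 ratio of Lyz1 to Lyz2 was 0.21 higher in the mutant (exact two-sided permutation p = 0.6, where 10 arrangements allow no p below 0.1). Against wt 3 alone the difference was -0.14.

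**Figure D2:**
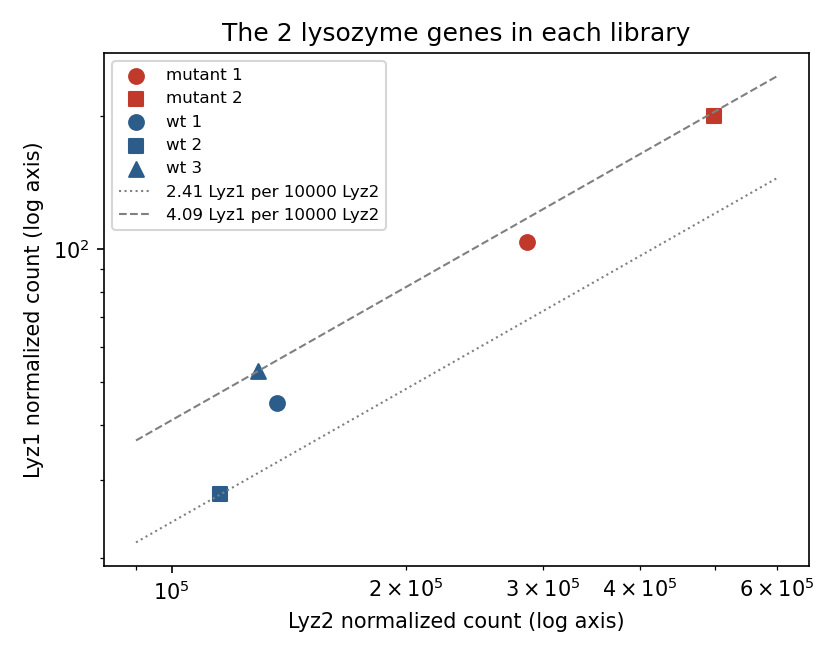
Lyz1 against Lyz2 normalized counts (both log axes) in the 5 libraries; the lines mark the lowest (2.41) and highest (4.09) number of Lyz1 reads per 10000 Lyz2 reads. Both mutant libraries lie up and to the right of the wt libraries and between the same lines.

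Adgre1 encodes F4/80, the surface protein by which mouse macrophages are usually recognised. It is at chr17:57358691-57483527, plus strand. Adgre1 had 46990 and 63455 normalized counts in mutant 1 and mutant 2, against 51628, 43143 and 50743 in wt 1, wt 2 and wt 3. The mutant libraries lay on either side of the highest wt library. The log2 fold change was 0.18 (95% interval -0.19 to 0.55, limma adjusted p = 0.469). Without mutant 1 it was 0.39 (adjusted p = 0.0312) and without mutant 2 it was -0.041, so its direction rested on mutant 2.

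Chil3, a secreted chitinase-like protein of alternatively activated macrophages and neutrophil precursors, is at chr3:106147554-106167564, minus strand. Chil3 had 312 and 486 normalized counts in mutant 1 and mutant 2, against 482, 302 and 472 in wt 1, wt 2 and wt 3. The groups overlapped: mutant 1 was near wt 2, and mutant 2 was near wt 1 and wt 3. The log2 fold change was -0.07 (95% interval -0.72 to 0.57, limma adjusted p = 0.876), and it turned positive without wt 1 (0.044), wt 3 (0.029) or mutant 1 (0.25). The gene has a close paralog, Chil4, so its counts are uncertain.

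Vcan, a large proteoglycan of the extracellular matrix that monocytes also make, is at chr13:89655312-89742509, minus strand. Vcan had 309 and 161 normalized counts in mutant 1 and mutant 2, against 285, 216 and 269 in wt 1, wt 2 and wt 3. The mutant libraries lay outside the wt range on both sides. The log2 fold change was -0.19 (95% interval -0.87 to 0.49, limma adjusted p = 0.672). It was -0.66 without mutant 1 (adjusted p = 0.0243) and 0.28 without mutant 2. Vcan overlaps the antisense gene Gm4117, which had 320 reads over all libraries.

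Cd226 and Retnla were not tested. Cd226, an activating receptor of T and NK cells that some peritoneal macrophages carry, is at chr18:89176967-89272229, plus strand. Cd226 had 0 and 2 reads in mutant 1 and mutant 2, against 0, 2 and 0 in wt 1, wt 2 and wt 3. Retnla, a secreted protein induced by interleukin 4 (chr16:48842551-48844461, plus strand), had 0 reads in all 5 libraries. Neither gene could be compared at this depth.

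The authors' deposited table gives log2 fold changes as wt over mutant, so a positive value means lower in the mutant. In that table Plac8 had 1.71 (adjusted p = 8.05e-10), Folr2 0.82 (0.0134), Lyz1 -0.9999 (0.00259) and Lyz2 -1.16 (3.83e-05). Each was smaller in size than the limma value of mutant over wt (-3.33, -1.30, 1.78 and 1.58), and the reason was not tested. The other members had adjusted p of 0.600 (Adgre1), 0.689 (Chil3) and 1 (Vcan, Cd226, Retnla) in the authors' deposited table. For Chil3 this was below the authors' unadjusted p of 0.891, which Benjamini-Hochberg adjustment alone cannot give. The same 4 markers were thus called there in the same directions as with limma, where the authors' calls covered 7.17% of all genes listed, 3.51% higher and 3.66% lower in the mutant. Its base mean for Retnla, 0.16, was above 0 although all 5 libraries had 0 reads, so the authors' fit drew on libraries not analysed here.

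**Figure D3:**
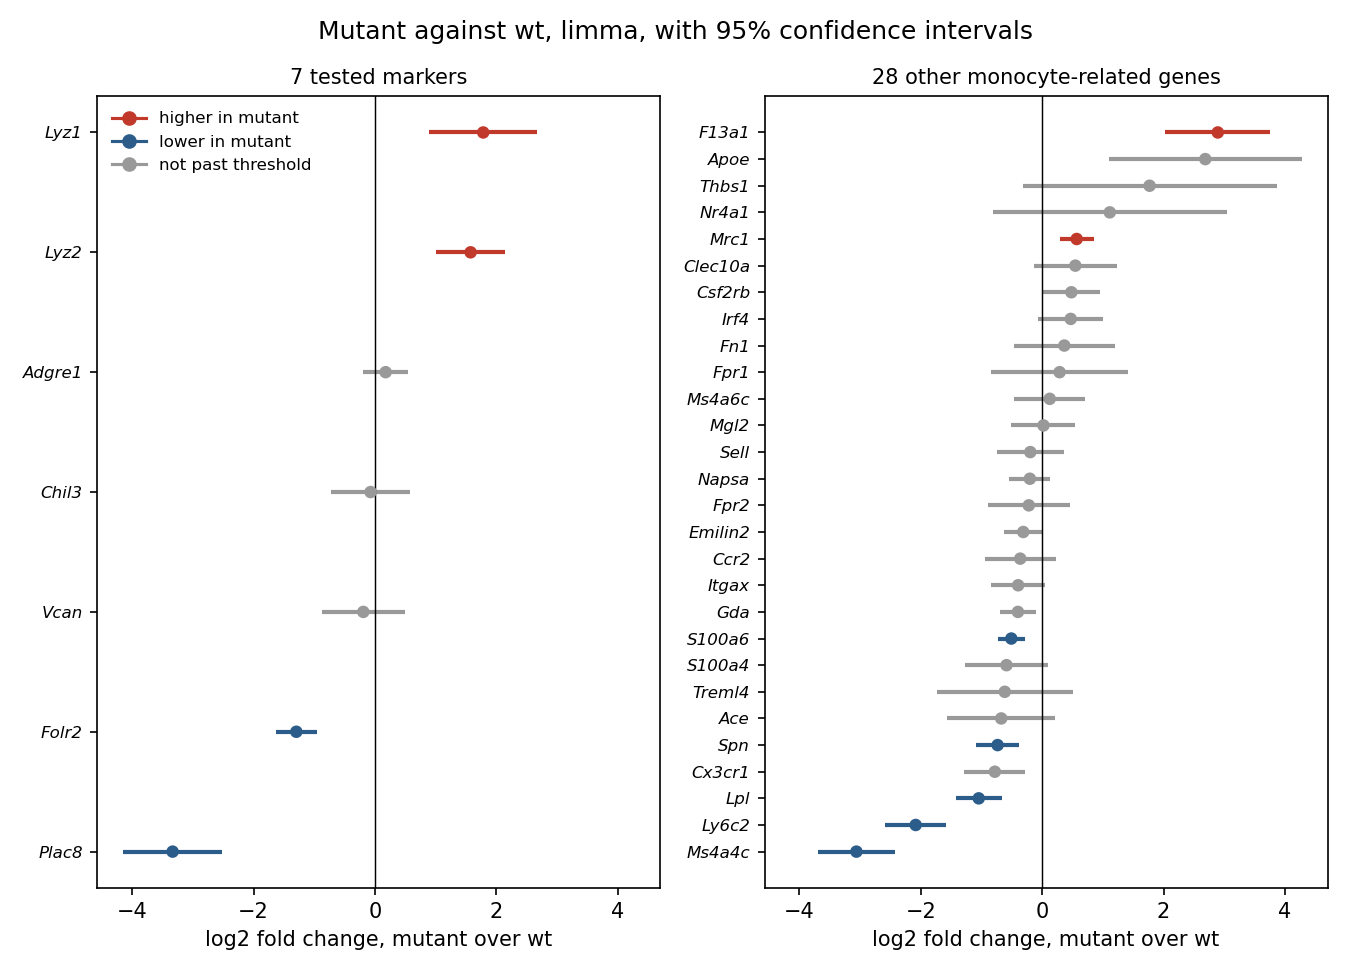
Log2 fold change of mutant over wt (limma, points) with 95% confidence intervals (bars) for the 7 tested markers (left) and 28 other monocyte and monocyte-derived macrophage genes (right); colours show calls at adjusted p under 0.05. Plac8 and Folr2 are left of 0 and both lysozymes right of it, and the other genes spread from -3.06 (Ms4a4c) to 2.89 (F13a1).

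Scaled to gene length and library total (RPKM), the order of levels had Lyz2 first and Adgre1 second in both groups. In mutant libraries Lyz2 had 7795 and 13066 RPKM, against 3174 to 3786 in wt libraries. Adgre1 had 520 and 676 RPKM in mutant libraries, against 482 to 581 in wt libraries. In the mutant, Chil3 followed with 6.85 and 10.3, then Lyz1 (2.94 and 5.46) and Folr2 (3.54 and 2.73), which overlapped, then Plac8 (1.70 and 2.03) and Vcan (0.766 and 0.383). In wt, Plac8 stood in place 3 with 12.0 to 26.2 RPKM, ahead of Chil3 (6.70 to 10.7) and Folr2 (7.41 to 8.24), which overlapped, then Lyz1 (0.796 to 1.503) and Vcan (0.541 to 0.718). Plac8 thus ranked 3 of the tested markers in wt and 6 in the mutant. Other neighbours in the orders did not overlap.

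**Figure D4:**
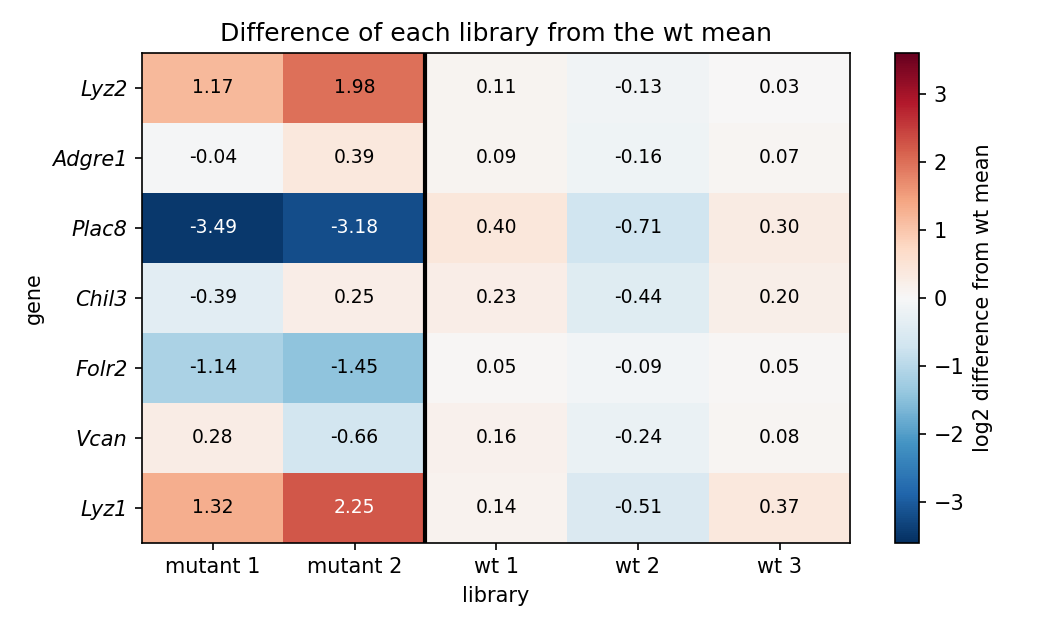
Log2 difference of each library from the wt mean for the 7 tested markers (rows), with mutant libraries left of the black line and wt libraries right of it; red is above and blue below the wt mean. Plac8 is at -3.49 and -3.18 in the mutant libraries, and wt 2 is the lowest wt library for each marker.

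Within the groups, mutant 2 exceeded mutant 1 for 5 of the 7 tested markers, by 1.24-fold (Plac8) to 1.93-fold (Lyz1), while Folr2 and Vcan were 1.25-fold and 1.93-fold higher in mutant 1. The wt 2 library was the lowest wt library for 7 of the 7, against 36.3% of all genes tested and 22 of 28 other monocyte genes. The largest spread among wt libraries was 2.17-fold, for Plac8, and the smallest was 1.10-fold, for Folr2. Set against counting noise alone, the mean chi-square per gene was above 1 in each pair of libraries of a group: between the mutant libraries it was 61.6, against 14.3 to 26.03 between wt libraries. Single genes with many reads can raise these means, so they do not describe a typical gene.

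The 28 other monocyte and monocyte-derived macrophage genes, all tested, had 2 called higher and 5 lower in the mutant by limma, with a median log2 fold change of -0.21 (all genes tested, 0.00). Ms4a4c, a membrane protein of the MS4A family, had 289 and 449 normalized counts in mutant libraries, against 3638, 2235 and 3380 in wt 1, wt 2 and wt 3. Its log2 fold change was -3.06 (adjusted p = 0.0019). Ly6c2, the surface marker of classical monocytes, which has close paralogs that make its counts uncertain, had 93.9 and 77.6 in mutant libraries, against 424, 285 and 413 in wt libraries (-2.08, adjusted p = 0.00367). Lpl, lipoprotein lipase, had 66639 and 49870 in mutant libraries, against 105380 to 126510 in wt libraries (-1.05, adjusted p = 0.0159). F13a1, coagulation factor XIII A chain, went the other way, with 2969 and 6713 in mutant libraries, against 450 to 692 in wt libraries (2.89, adjusted p = 0.00869). Ccr2, the receptor by which monocytes are recruited, named here after its values were seen, did not pass the threshold (-0.36, adjusted p = 0.348).

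Leaving out 1 library moved these counts. The calls in the 28 genes were 0 higher and 2 lower without wt 1, 1 and 4 without wt 2, 1 and 2 without wt 3, 8 and 10 without mutant 1, and 3 and 5 without mutant 2. Over the 7 markers they were 0 and 1 without wt 1, 0 and 2 without wt 2 or wt 3, 3 and 3 without mutant 1, and 1 and 2 without mutant 2. The percentages called in each direction moved with them: of all genes tested, 0.196% were called higher and 1.17% lower without wt 1, 0.541% and 1.93% without wt 2, 0.251% and 1.2% without wt 3, 14% and 19.9% without mutant 1, and 3.36% and 5.71% without mutant 2.

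Of the 15 tested genes of alternative activation (19 were in the table), 2 were higher and 3 lower in the mutant by limma, with a median of -0.06. Cd36, a scavenger receptor, fell by 0.93 on the log2 scale, Ccl22, a chemokine, by 0.97 and Pparg, a lipid-sensing transcription factor, by 0.59, while Il4ra, the interleukin 4 receptor subunit, rose by 0.68 (adjusted p 0.0115, 0.0228, 0.0295 and 0.0375). These are the pathway genes beside Retnla and Chil3. Without wt 1, without wt 3 and against wt 3 alone limma made 0 calls in this list, and without wt 2 it made 0 higher and 1 lower.

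Macrophage identity was read from 16 pan-macrophage genes, 3 of them higher and 1 lower in the mutant by limma (median 0.19). Fcgr1, the high-affinity Fc receptor CD64, had 3341 and 4328 normalized counts in mutant libraries, against 10314 to 11444 in wt libraries (-1.52, adjusted p = 0.00123). Cd163 (1.45), Maf (0.67) and Mertk (1.13), a scavenger receptor, a transcription factor and a receptor for dying cells, were higher. Lgals3, the gene of the list with the highest mean over the 5 libraries, was at -0.08 (adjusted p = 0.577). Csf1r exceeded Lgals3 in mutant 2 alone (116220 against 82654 normalized counts) and did not pass the threshold (0.68, limma adjusted p = 0.0965). The higher calls numbered 0 without wt 1, wt 2 or wt 3, 10 without mutant 1 and 3 without mutant 2, and the lower ones 1 throughout, save 2 without mutant 2.

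Of 18 genes of resident large peritoneal macrophages in the table, 9 were tested, 1 was higher (Marco, a scavenger receptor, 2.99) and 1 lower (Icam2, an adhesion molecule, -0.99). The median log2 fold change of the 9 was 0.24. At unadjusted p under 0.05 limma had 5 of them higher and 1 lower, against 2077 and 2644 of all 14977 genes tested. Marco had 93.0 and 43.6 normalized counts in mutant libraries, against 5.80, 8.97 and 4.63 in wt 1, wt 2 and wt 3, so it passed the filter only through the mutant libraries, and without either of them it was not tested. Limma made 0 calls in this list without wt 1 or wt 3, and 0 lower calls without wt 2, and 2 without mutant 1. Cd93, the most abundant gene tested in the list, was at 0.24 (adjusted p = 0.103). Gata6 and Timd4, which define large resident peritoneal macrophages, had 0 reads in all 5 libraries, so those defining markers were absent at this depth in cells labelled as peritoneal macrophages.

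The markers of other cell types moved with the groups in places. The summed level of 12 neutrophil markers, which include other secreted antibacterial proteins, was 236 and 295 CPM in mutant libraries, against 161, 118 and 163 in wt 1, wt 2 and wt 3. Mmp8, a collagenase, made up 143 and 150 CPM of these sums in mutant libraries, against 60.9, 50.2 and 62.3 in wt 1, wt 2 and wt 3. Without Mmp8 the groups overlapped, with sums of 92.5 and 145 CPM in mutant libraries, against 99.6, 67.5 and 100.2 in wt 1, wt 2 and wt 3, and the median log2 fold change of the 10 tested genes was 0.05. Of these 10, 2 were called higher (Mmp8, 1.39 and Mmp9, 1.20) and 0 lower by limma (0 lower also at unadjusted p under 0.05, by edgeR and by DESeq2). At unadjusted p under 0.05 limma had 2077 higher and 2644 lower of all 14977 genes tested. Without wt 1, wt 2 or wt 3 the higher calls numbered 1. S100a8 and S100a9, abundant in neutrophils, were at 0.01 and -0.10, and Ly6g had 1 and 0 reads in mutant libraries, against 1, 1 and 0 in wt libraries. The part of these genes in the lysozyme result was not tested.

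The 10 B cell markers summed to 203 and 228 CPM in mutant libraries, against 95.3 to 120 in wt libraries, most of it from Ighm (the rest summed to 32.6 and 20.8 CPM in mutant libraries, against 17.1 to 18.8 in wt libraries). The log2 fold changes of the 9 tested ran from 0.28 to 1.43, with a median of 1.03. As differences from the wt mean, the list medians were 1.78 and 0.27 in mutant 1 and mutant 2, against -0.11, 0.37 and -0.13 in wt 1, wt 2 and wt 3. By limma at unadjusted p under 0.05, by edgeR and by DESeq2 alike, 2 of the 9 were higher and 0 lower. Of all 14977 genes tested, 2077 were higher and 2644 lower by limma at unadjusted p under 0.05. By adjusted p limma called 1 higher (Ighm, 1.16) and 0 lower. The higher calls numbered 0 without wt 1 or wt 3 and 5 without mutant 2. The 12 mesothelial and fibroblast markers summed to 1.40 and 1.54 CPM in mutant libraries, against 2.93 to 4.03 in wt libraries, with Krt18, Krt19 and Lum at 0 reads throughout and Col1a1 lower by limma (-1.05). That call was absent by edgeR and limma-voom, with no filter, and without wt 1, wt 2, wt 3 or mutant 2. With a filter of 50 normalized counts Col1a1 was not tested, as wt 3 alone reached it (56.5). Mast cell and eosinophil markers (9 in the table) summed to 5.26 and 4.47 CPM in mutant libraries, against 9.12 to 10.4 in wt libraries, with Hdc (-2.35) and Ccr3 (-1.34) lower. Hdc had 6.85 and 6.38 normalized counts in mutant libraries, against 39.5 to 46.4 in wt libraries, so it passed the filter only through wt libraries. Without wt 1, wt 2 or wt 3 limma called 1 gene of this list lower. Dendritic cell markers (8) summed to 9.22 and 12.8 CPM in mutant libraries, against 12.2 to 14.5 in wt libraries, with Ccr7 lower by limma (-1.18) and 0 genes higher. At unadjusted p under 0.05 limma had 1 higher and 2 lower, while edgeR called 0 higher and 1 lower, and DESeq2 1 and 1. The median log2 fold change of the 7 tested was -0.40. The Ccr7 call was lost without wt 1, wt 2 or wt 3, and without Ccr7 the sums overlapped, with 7.33 and 10.1 CPM in mutant libraries, against 7.53 to 8.09 in wt libraries. Siglech, a surface protein of plasmacytoid dendritic cells, had 35.2 and 111.6 normalized counts in mutant libraries, against 21.6, 7.18 and 17.6 in wt 1, wt 2 and wt 3, and did not pass the threshold (2.01, limma adjusted p = 0.0850). Flt3 was at 0.53 (adjusted p = 0.257). Xcr1 went the other way, with 2.94 and 4.25 normalized counts in mutant libraries, against 10.8 to 18.5 in wt libraries (-1.43, limma adjusted p = 0.0646). It passed the filter only through wt libraries. Batf3 was at -0.45 (limma adjusted p = 0.179). Siglech, Flt3, Xcr1 and Batf3 were named after their values were seen. T and NK cell markers (11) summed to 0.877 and 0.477 CPM in mutant libraries, against 0.876 to 1.04 in wt libraries. Of these, Prf1 was at 0 reads throughout, and Lck, the 1 gene tested, did not pass the threshold (-1.27, limma adjusted p = 0.0528, unadjusted p = 0.00488, not called by edgeR or DESeq2). Lck had 7.83 and 5.32 normalized counts in mutant libraries, against 16.7 to 21.5 in wt libraries, so it too passed the filter only through wt libraries. The part of these sums in the lower Plac8 and Folr2 was not tested.

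Among 9227 other genes, those whose pattern over the 5 libraries was nearest to each called marker were found by the root mean square difference of log2 values, centred on the wt mean. Nearest to Plac8 were Ms4a4c (0.252), H2-Q7 (0.285) and H2-Q6 (0.366). H2-Q6 and H2-Q7 are close paralogs, so their counts are uncertain. Nearest to Folr2 were Rnase6 (0.0490), Gbp8 (0.0581) and Sdc3 (0.0973). Nearest to Lyz1 were Plxdc2 (0.0990), Nuak1 (0.133) and Abca9 (0.137), and nearest to Lyz2 were Dbp (0.0841), Mgst1 (0.0922) and Igf1r (0.0986). The distances were smaller for Folr2 than for Plac8. The wt libraries of Plac8 were also more spread, and the part of this spread in the distances was not tested.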

How the data were processed

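RNA was sequenced from a strand-marking kit per the labels' protocols. Per the submitters' processing notes, STAR, featureCounts, Subread, DESeq 1.6.1 and mm10 were used, with no further settings. The authors deposited a table of 30478 genes with a normalized count per library (a signal: counts divided by a size factor), their log2 fold change and their p-values. Rows without a symbol numbered 370, and 0 sample columns were left unused. Every value came out as a whole number of reads (100% within 0.001 reads) and reads were recovered from the deposited signal.

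The main test was limma-trend (limma 3.58.1, R 4.3.3) on log2(normalized count + 2) for genes with at least 10 in at least 2 libraries, two-sided, with Benjamini-Hochberg adjustment at 0.05; edgeR 4.0.16, run on recovered reads, called 642 genes higher and 669 lower, and limma 556 and 732. DESeq2 1.42.0 was an alternative. The limma step was run on simulated counts with the same relative spread in every gene and in both groups. That run does not show how the step does where libraries differ in spread, as here. CPM and RPKM used recovered totals and the deposited gene lengths. Positions are from GENCODE M21, and promoters from RefSeq. Floors are 3 reads.

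The 9 markers were given by symbol. All are named, and each other list gives up to 4 called genes of lowest adjusted p, its most abundant tested gene and those with 0 reads throughout. S100a8, S100a9, Ly6g, Ccr2, Csf1r, Siglech, Flt3, Xcr1 and Batf3 were added after their values were seen. The markers and lists were chosen with earlier results of these data known.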

Additional observations from a re-analysis of the deposited data

How the results depend on the processing

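Counts of calls are given as higher, then lower, in the mutant. DESeq2 called 1121 and 1308 of all genes and 2 resident macrophage genes higher. Without a filter on low values 1 alternative activation gene was higher, and with a filter of 50 normalized counts 0 resident genes were. Marco, with 93.0 and 43.6 in mutant libraries, did not pass that filter and so was not tested. Fitted with the replicate number as a block, 6 and 75 of all genes were called, and 0 and 0 of the markers, of the other monocyte, the alternative activation and the resident genes; adjusted p was 0.0698 (Plac8), 0.132 (Folr2), 0.255 (Lyz1) and 0.256 (Lyz2). In that fit wt 3, which has no mutant library of its number, adds nothing to the difference, and less is left to estimate the spread. The labels do not say that equal numbers pair the samples. Same-numbered libraries deviated with correlations of -0.49 and -0.60 over 9977 genes. With 2 mutant libraries, the deviations of 1 from their mean mirror those of the other, so these correlations cannot decide whether samples were paired. Against wt 3 alone, an alternative chosen after seeing the data, 1 and 23 of all genes were called, 0 and 1 of the markers, and 0 and 0 of the other 3 lists, and the Lyz1 to Lyz2 difference was -0.14. Leaving out 1 library gave 29 to 2062 and 173 to 2929 of all genes, 0 to 3 and 1 to 3 of the markers, 0 to 8 and 2 to 10 of the other monocyte genes, 0 to 3 and 0 to 3 of the alternative activation genes, 0 to 1 and 0 to 2 of the resident genes, and a lysozyme ratio difference of 0.02 to 0.38. With 1 mutant library left, it is assumed to vary like the wt libraries. Directions turned for Chil3 with the block (0.029) and, with 1 library left out (-0.39 to 0.25), without wt 1, wt 3 or mutant 1; for Vcan (-0.66 to 0.28) and Adgre1 (-0.041 to 0.39) they turned without mutant 2. The cause was not tested. Pseudocounts of 0.5 and 8 and other scalings changed no call of a marker. Of the 238 values for the remaining lists, 192 stayed within 1.5 times and 46 moved. Depth limits Cd226 and Retnla.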
